A study of Drosophila melanogaster with 8 samples.

Results

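The RNA interference machinery genes of *Drosophila melanogaster* were followed in RNA-seq of adult heads. The set is 9 genes chosen by name, AGO1, AGO2, Dcr-1, Dcr-2, r2d2, loqs, Rm62, vig and Tudor-SN, out of 16727 gene symbols in the count tables. All 9 were found in every table, and all 9 were among the 9633 genes with enough reads to be tested. The libraries were labelled Top3b26, a mutant allele of the topoisomerase gene Top3beta made by remobilizing a P element, or w1118, the control stock and the background in which the allele was made, with 4 libraries of each. Both groups were heads of adult flies of 1 to 2 weeks, kept on the same food and light cycle, and total RNA came from heads collected in bulk, so each library pools many animals and all cell types of the head. The w1118 stock lacks a working white gene, which is needed for red eye pigment. A lower level in such a pool can reflect fewer cells of a type or less RNA per cell, and these cannot be told apart. The labels do not say which replicates came from separate collections, and the methods speak of fewer independent RNA preparations than there are labelled replicates, so the p-values measure the spread between these libraries, which may be technical.

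RNA interference uses small RNAs to guide an Argonaute protein to matching transcripts. In flies, Dcr-1 with its double-stranded RNA binding partner Loqs makes microRNAs, most of which load into AGO1, while Dcr-2 with R2D2 makes and loads small interfering RNAs that work through AGO2. Small RNA and Argonaute together form the silencing complex, RISC, and biochemical work in flies has linked AGO2 to a wider group of proteins. Of these, Tudor-SN is a nuclease, Rm62 encodes a DEAD-box helicase known as p68, and the product of vig binds RNA. In neurons and other somatic cells these pathways tune mRNA levels and restrain viruses and transposons. The comparison addressed whether transcripts of the machinery itself differ between the genotypes, since the study examined Top3β together with this complex.

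Total counts on genes were 4816757 to 6685891 in the libraries labelled Top3b26 and 3301976 to 7591510 in those labelled w1118. Values are CPM, gene counts scaled to a common library total, and 3 counts correspond to 0.395 to 0.909 CPM, a floor that covers counting error only. Top3beta itself was higher in the libraries labelled Top3b26, at 42.3 to 91.6 CPM, against 23.8 to 40.6 CPM in those labelled w1118. Over all libraries the edgeR adjusted p was 0.16, or 0.013 when blocked by replicate number. It was higher by 1.07 on the log2 scale in replicates 1 and 2 alone (edgeR adjusted p = 3.7e-05). In replicates 3 and 4 alone it was higher by 0.64 (edgeR adjusted p = 0.0051). The samples are thus called by their labels, and every direction rests on these labels. A header line is present in the count tables of replicates 1 and 2 and missing from the others, and the libraries separate by these replicate sets. Neuron markers were present throughout, at a summed 7572 to 9581 CPM over 6 genes in Top3b26 libraries and 6924 to 7556 CPM in w1118 libraries. The libraries labelled Top3b26 replicates 1 and 2 stood apart: their 7 photoreceptor markers, ninaE among them, summed to 2078 to 2234 CPM, against 38549 to 41615 CPM in w1118 replicates 1 and 2, and all 7 were lowest in those libraries. In replicates 3 and 4 the same sum was 22218 to 27202 CPM in Top3b26 and 30148 to 32940 CPM in w1118 libraries. Fat body and yolk protein markers summed to 9508 to 12155 CPM in Top3b26 replicates 3 and 4, against 38822 to 52760 CPM in w1118 replicates 3 and 4. Of 6 germline markers, 4 were under 1 CPM in every library. Their sum was 28.2 to 63.2 CPM in Top3b26 and 23.7 to 49.7 CPM in w1118 libraries. Most of it came from grk, at 27.0 to 61.4 CPM in Top3b26 and 21.9 to 46.9 CPM in w1118 libraries.

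The 9 genes differed widely in transcript level. On a scale of CPM per kilobase of exon, Rm62 was at 144 ± 23.2, AGO1 at 115 ± 11.3 and vig at 109 ± 14.1 (SD over all 8 libraries). AGO2 followed at 65.9 ± 8.27 and loqs at 47.8 ± 10.2 CPM per kilobase. Tudor-SN was at 26.9 ± 2.31, r2d2 at 20.3 ± 3.00, Dcr-2 at 7.95 ± 1.16 and Dcr-1 at 2.94 ± 0.85 CPM per kilobase. Thus the enzymes that cut small RNA precursors were the scarcest transcripts of the set, and the range of Dcr-2 did not overlap that of Dcr-1. Some neighbors in this order did not separate. The ranges of Rm62 and AGO1 overlapped, although Rm62 was the higher in 8 of 8 libraries, and AGO1 was above vig in 4 of 8. The ranges of AGO2 and loqs, and of Tudor-SN and r2d2, overlapped too. Exon lengths are those of the current annotation of the dm6 genome and may differ from the authors' gene models.

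**Figure D1:**
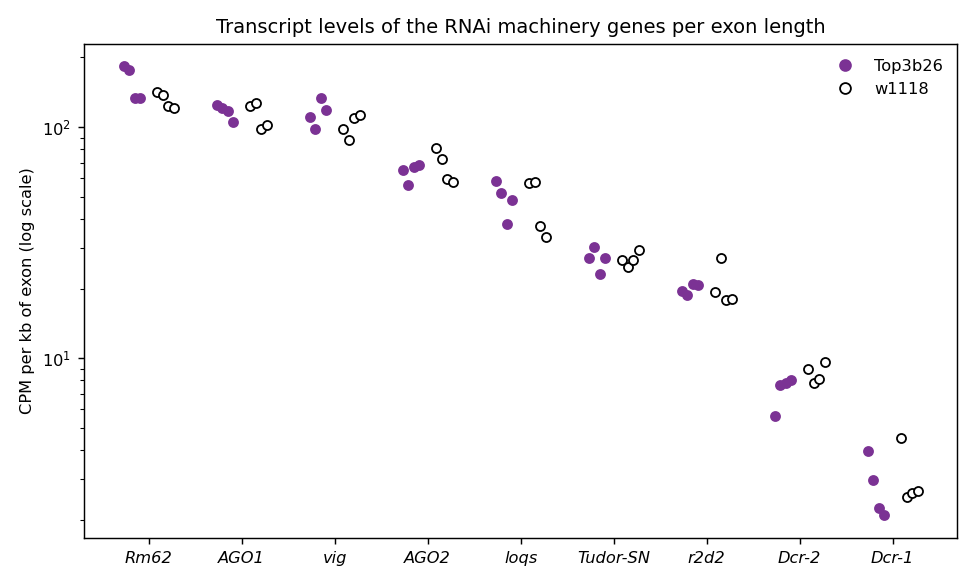
Transcript level of each RNAi machinery gene in CPM per kilobase of exon (vertical axis, log scale), ordered by mean over 8 libraries, with libraries labelled Top3b26 as filled points and w1118 as open points, 1 point per library. Rm62, AGO1 and vig lie highest with overlapping ranges, and Dcr-2 and Dcr-1 lie lowest, each apart from its neighbors.

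The other Argonaute genes of the fly, known for transposon silencing with piRNAs in the germline, were much scarcer in these heads. On the same per-length scale, piwi was at 2.84 ± 0.691, aub at 0.837 ± 0.190 and AGO3 at 0.536 ± 0.149 CPM per kilobase (SD over 8 libraries), and the highest piwi value, 4.14, lay below the lowest AGO2 value, 55.8. gw, which encodes the GW182 protein that AGO1 recruits to silence targets, was at 122 ± 21.8 CPM per kilobase, a mean within the AGO1 range.

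None of the 9 genes was called between genotypes. Calls were made in edgeR's quasi-likelihood test at a Benjamini-Hochberg adjusted p up to 0.05 with a fold change of 1.5 or more, with libraries scaled by TMM factors, which correct library totals for a few abundant genes. By that rule, 0 of 9 members were called, beside 88 of all 9633 tested genes (0.914%). Blocked by replicate number, 0 of 9 members were called, beside 368 genes (3.82%). DESeq2 (2.41% of all genes called) and limma's voom (0.893%) also called 0 of 9. At an unadjusted p under 0.05 the edgeR test over all libraries gave 0 of 9 members, beside 12.4% of all genes. Other fits gave 1 of 9, Dcr-2, at that level, among them edgeR blocked by replicate number (20% of all genes), with the replicate set as a term (25.1%) and with upper-quartile scaling (12.4%), and voom (12.2%). The CPM ranges of the genotypes separated for 0 of 9 members, beside 10.2% of all tested genes. For 9 members, 0 is near that share. The fold changes were negative for 7 members and positive for 2, with a median log2 fold change of -0.13, beside -0.0069 over all tested genes. The 95% intervals of all 9 lay between -0.77 and 0.45 on the log2 scale, that is, between 0.585-fold and 1.36-fold. Because TMM factors differ between libraries, the fold changes lie below the ratios of mean CPM, and scaling to library totals alone moves the median of all genes from -0.0069 to 0.12 on the log2 scale. Under that scaling AGO1, loqs and Tudor-SN turned positive, at 0.052, 0.087 and 0.0088.

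**Figure D2:**
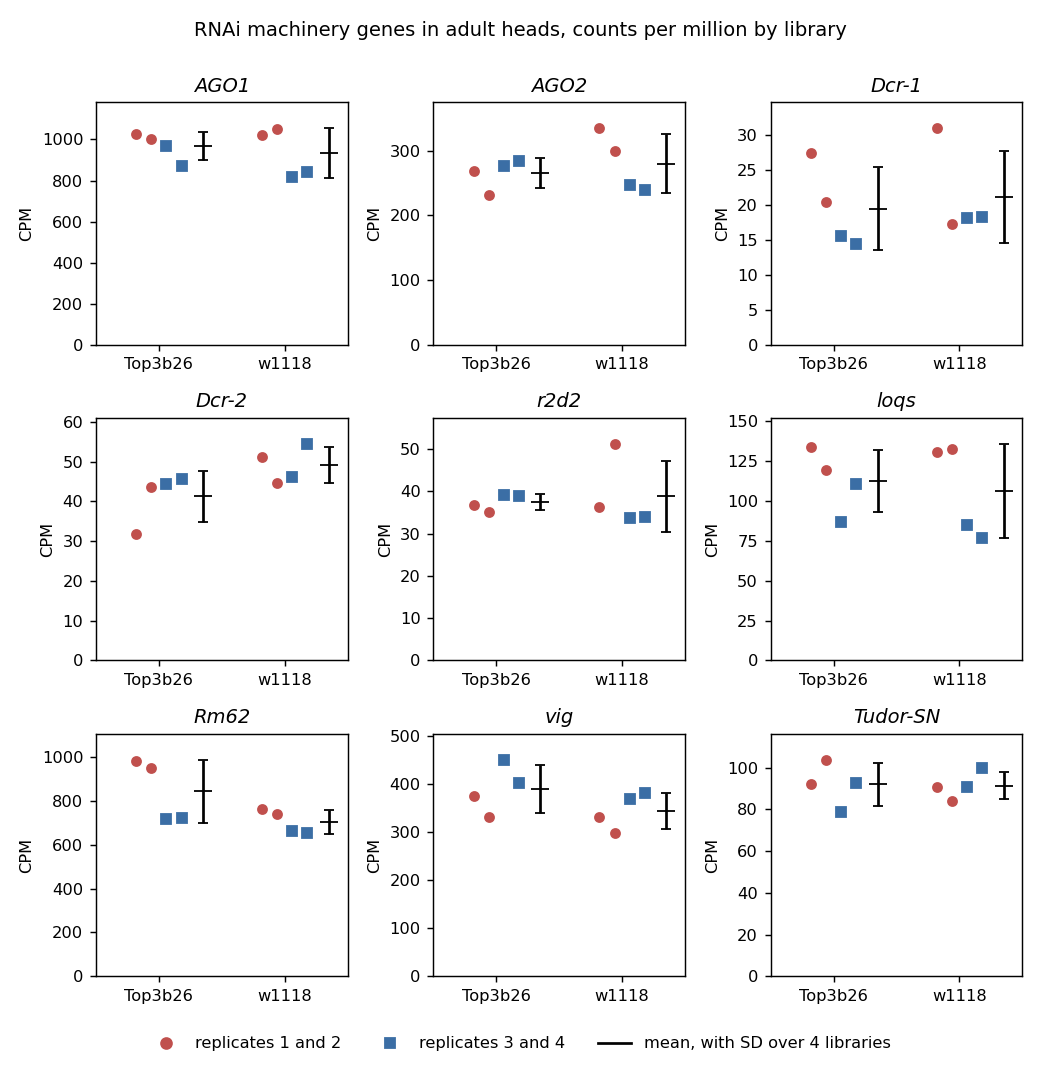
CPM of each RNAi machinery gene (vertical axes, from 0) in libraries labelled Top3b26 (left) and w1118 (right), with replicates 1 and 2 as red circles, replicates 3 and 4 as blue squares, and the mean with SD over 4 libraries in black. For all 9 genes the values of the genotypes overlap, and the replicate sets separate in both genotypes for AGO1, AGO2, r2d2, loqs, Rm62 and vig, and in 1 genotype for Dcr-1, Dcr-2 and Tudor-SN.

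Among the microRNA genes, AGO1 (2R, 13943387 to 13958089 in dm6), the main microRNA Argonaute, had 1027, 1000.0, 969.7 and 870.3 CPM in replicates 1 to 4 labelled Top3b26, against 1023, 1052, 815 and 841 CPM in replicates 1 to 4 labelled w1118. All 4 Top3b26 values lay within the w1118 range. Means were 967 ± 68.3 CPM in Top3b26 and 933 ± 122 CPM in w1118 libraries (SD, n = 4 each), and the log2 fold change was -0.07 (standard error, SE, 0.12, edgeR adjusted p = 0.85). Dcr-1 (3R, 22734007 to 22741091), which cuts microRNA precursors, had 27.5, 20.5, 15.6 and 14.4 CPM in replicates 1 to 4 labelled Top3b26, against 31.0, 17.3, 18.1 and 18.3 CPM in replicates 1 to 4 labelled w1118. Replicate 1 was the highest library of both genotypes, and Top3b26 replicates 3 and 4 were below every w1118 library. Counts for this gene were low, and its log2 fold change of -0.26 carried an SE of 0.23 (edgeR adjusted p = 0.68). Without w1118 replicate 1 it was -0.058. loqs (2L, 13382652 to 13385671), whose protein isoforms partner Dcr-1 and also Dcr-2, had 134, 119, 87.0 and 110.4 CPM in replicates 1 to 4 labelled Top3b26, against 131, 132, 85.3 and 76.5 CPM in replicates 1 to 4 labelled w1118. In both genotypes replicates 1 and 2 were above replicates 3 and 4. The log2 fold change was -0.03 (SE 0.17, edgeR adjusted p = 0.97).

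Among the small interfering RNA genes, Dcr-2 (2R, 17574979 to 17581525), the enzyme that cuts long double-stranded RNA, was nearest to a difference. It had 31.8, 43.5, 44.4 and 45.5 CPM in replicates 1 to 4 labelled Top3b26, against 51.1, 44.5, 46.2 and 54.4 CPM in replicates 1 to 4 labelled w1118. In CPM, all Top3b26 libraries except replicate 4 lay below every w1118 library, replicate 3 only narrowly. After TMM scaling, Top3b26 replicates 3 and 4, at 45.1 and 46.2, lay above w1118 replicate 2, at 44.0. Means were 41.3 ± 6.41 CPM in Top3b26 and 49.1 ± 4.53 CPM in w1118 libraries (SD, n = 4 each), and the log2 fold change was -0.37 with a 95% interval of -0.77 to 0.02 (SE 0.17, edgeR adjusted p = 0.43). Top3b26 replicate 1 was the lowest library. Without it the log2 fold change was -0.23 (edgeR adjusted p = 0.68). Over all libraries with the replicate set as a term, Dcr-2 was at -0.38 (edgeR adjusted p = 0.085). Blocked by replicate number, Dcr-2 was at -0.39 (edgeR adjusted p = 0.17).

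r2d2 (2L, 7800147 to 7802098), which encodes the partner of Dcr-2 in loading AGO2, had 36.8, 35.1, 39.2 and 38.9 CPM in replicates 1 to 4 labelled Top3b26, against 36.4, 51.2, 33.7 and 34.0 CPM in replicates 1 to 4 labelled w1118. The libraries labelled Top3b26 were close to one another, and w1118 replicate 2 stood above all others. The log2 fold change was -0.16 (SE 0.15, edgeR adjusted p = 0.71), and without w1118 replicate 2 it was -0.020. In the annotation, 22.9% of the exon bases of r2d2 are shared with Cdc14 on the opposite strand, and 18.3% of those of loqs with the antisense RNA CR44599. The strand setting of the counting is not given in the sources used here, so reads in these stretches cannot be assigned with certainty.

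AGO2 (3L, 15554113 to 15561042), the slicing Argonaute of the small interfering RNA pathway, had 269, 231, 277 and 284 CPM in replicates 1 to 4 labelled Top3b26, against 335, 299.8, 247 and 239.9 CPM in replicates 1 to 4 labelled w1118. In replicates 1 and 2 both Top3b26 libraries were below both w1118 libraries, and in replicates 3 and 4 both were above. Over all libraries the log2 fold change was -0.19 (SE 0.14, edgeR adjusted p = 0.61).

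Of the genes of AGO2-associated proteins, Rm62 and vig ranked 1 and 3 of the 9 in level per kilobase and Tudor-SN ranked 6. Rm62 (3R, 6000426 to 6008579), encoding the p68 helicase, had 985, 952, 720.4 and 721 CPM in replicates 1 to 4 labelled Top3b26, against 762, 742, 665 and 654 CPM in replicates 1 to 4 labelled w1118. Top3b26 replicates 1 and 2 were above every other library, and Top3b26 replicates 3 and 4 lay within the w1118 range. Means were 844 ± 144 CPM in Top3b26 and 706 ± 54.1 CPM in w1118 libraries (SD, n = 4 each), with a log2 fold change of 0.12 (SE 0.12, edgeR adjusted p = 0.72).

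vig (2L, 15062931 to 15070316), encoding an RNA-binding protein, had 374, 330.4, 449.7 and 401 CPM in replicates 1 to 4 labelled Top3b26, against 330.4, 297, 368 and 380.0 CPM in replicates 1 to 4 labelled w1118. In both genotypes replicates 3 and 4 were above replicates 1 and 2, and the genotypes overlapped. The log2 fold change was 0.05 (SE 0.18, edgeR adjusted p = 0.94). Tudor-SN (3L, 259043 to 264380), a nuclease with tudor and staphylococcal nuclease domains, had 92.3, 104, 78.9 and 92.7 CPM in replicates 1 to 4 labelled Top3b26, against 90.6, 84.2, 90.7 and 99.8 CPM in replicates 1 to 4 labelled w1118. Its lowest and its highest library both carried the label Top3b26. The log2 fold change was -0.13 (SE 0.12, edgeR adjusted p = 0.72).

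**Figure D3:**
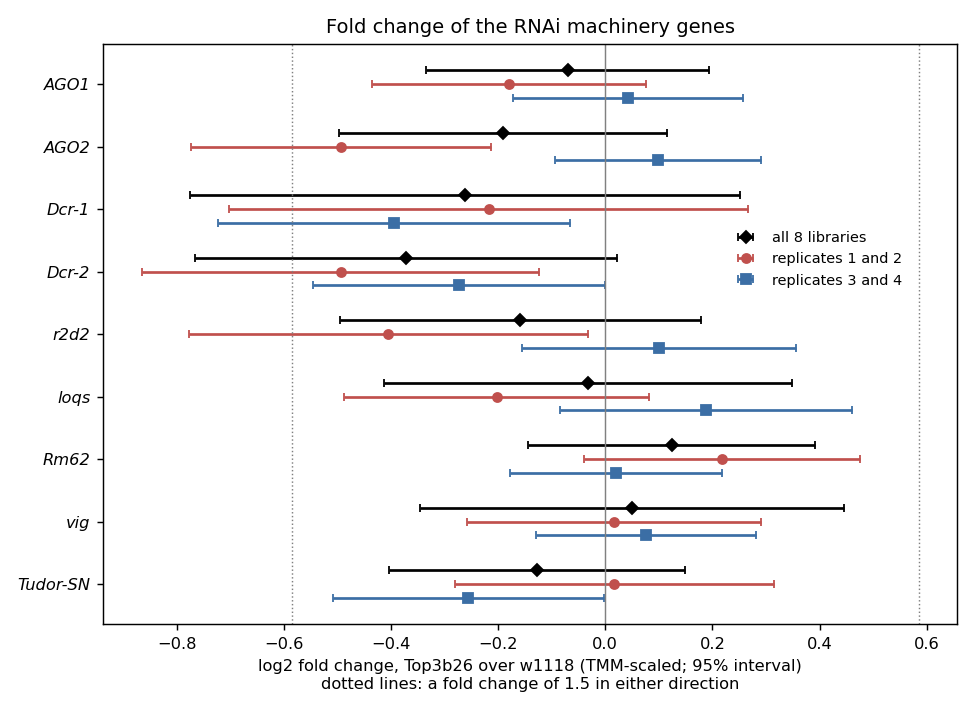
Log2 fold change of each RNAi machinery gene, Top3b26 over w1118 (horizontal axis), with 95% intervals, from all 8 libraries (black diamonds), replicates 1 and 2 (red circles) and replicates 3 and 4 (blue squares); dotted lines mark a fold change of 1.5. AGO2 lies at -0.49 in replicates 1 and 2 and at 0.10 in replicates 3 and 4, and all 9 intervals over 8 libraries cross 0.

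Because the libraries separate by replicate set, the comparison was repeated within each. In replicates 1 and 2, AGO2 fell by 0.49 on the log2 scale (SE 0.14, edgeR adjusted p = 0.015), a fold of 0.71 that stayed short of the 1.5-fold minimum, so 0 of 9 members were called, beside 10.5% of all genes. Past the adjusted p alone, AGO2 was the 1 member of 9, beside 14.3% of all genes. In replicates 3 and 4 the log2 fold change of AGO2 was 0.10 (SE 0.09, edgeR adjusted p = 0.56), and again 0 of 9 members were called, beside 7.48% of all genes. The genotype effect on AGO2 differed between the sets by 0.56 on the log2 scale (SE 0.15, edgeR interaction adjusted p = 0.033). AGO2 was the 1 of 9 members past this test, beside 7.31% of all genes.

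Several other measurements differed between the genotypes in replicates 1 and 2, and some of these differed the same way in replicates 3 and 4. The photoreceptor sum was at 2078 to 2234 CPM in those Top3b26 libraries, against 38549 to 41615 CPM in the w1118 libraries, and 7 of 7 photoreceptor markers were called lower there. CG7739, which shares 7.65% of the AGO2 exon bases on the opposite strand, had a log2 fold change of -0.47 in replicates 1 and 2 (edgeR adjusted p = 0.030) and 0.073 in replicates 3 and 4. Among other cell type markers in replicates 1 and 2, alrm and repo (glia), Act88F (muscle), Pxn (hemocytes) and Lsp2 (fat body) were called higher in Top3b26, and Amy-p (gut) and the fat body gene Rfabg were called lower. Summed glia markers were at 1506 to 1571 CPM in those Top3b26 libraries, against 1258 to 1310 CPM in w1118 libraries, and summed muscle markers at 2976 to 3132 CPM, against 1968 to 2303 CPM. In replicates 3 and 4 AGO2 lay slightly the other way, but several markers did not turn. Glia markers there summed to 2095 to 2397 CPM in Top3b26, against 1950 to 2038 CPM in w1118 libraries. Muscle markers summed to 8431 to 8915 CPM, against 6196 to 6616 CPM. The photoreceptor sum was again lower in Top3b26, and Amy-p was again called lower, at -1.24 on the log2 scale. The fat body sum was 9508 to 12155 CPM in Top3b26, against 38822 to 52760 CPM in w1118 libraries. The part of these in the AGO2 values was not tested. Top3b26 replicates 1 and 2 were also left out, a choice made after the data were seen. The log2 fold change of AGO2 was then -0.02, and 0 of 9 members were called, beside 0.273% of all genes. All w1118 libraries stay in that fit, so genotype and replicate set are mixed in its values. In w1118 libraries AGO2 was higher in replicates 1 and 2 than in replicates 3 and 4.

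**Figure D4:**
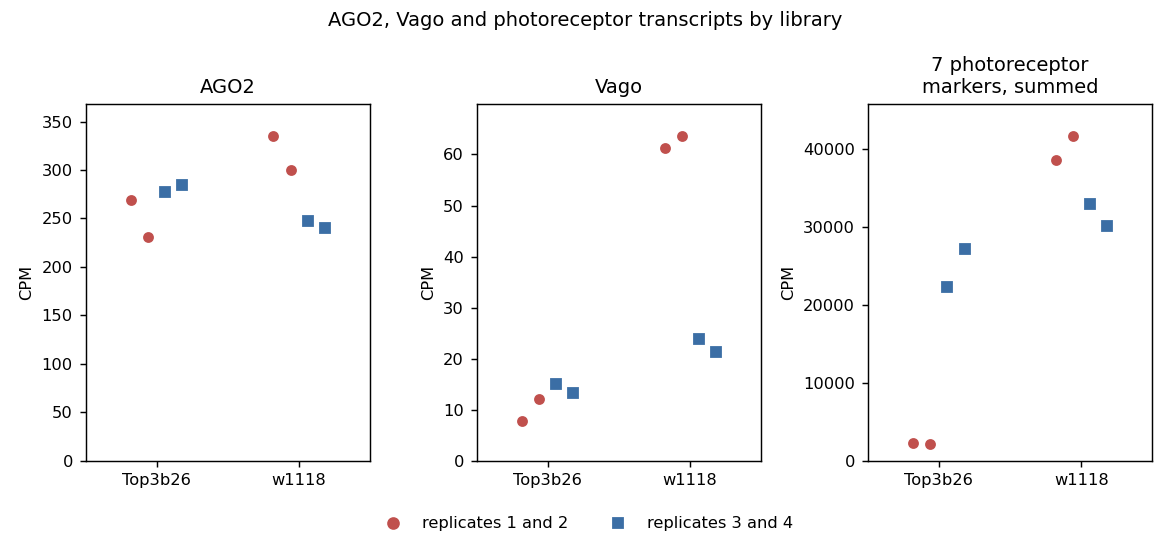
CPM by library (vertical axes, from 0) of AGO2, of Vago and of 7 photoreceptor markers summed, in libraries labelled Top3b26 (left in each panel) and w1118 (right), replicates 1 and 2 as red circles and replicates 3 and 4 as blue squares, 1 point per library. The photoreceptor sum is at 2078 to 2234 CPM in Top3b26 replicates 1 and 2 and at 22218 CPM or more elsewhere, and Vago is lower in every Top3b26 library than in any w1118 library.

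The other members did not pass in either set. At an unadjusted p under 0.05 edgeR gave 3 of 9 in replicates 1 and 2 (AGO2, Dcr-2 and r2d2, beside 27% of all genes) and 3 of 9 in replicates 3 and 4 (Dcr-1, Dcr-2 and Tudor-SN, beside 24.1%). Dcr-2 was at -0.49 in replicates 1 and 2 and -0.27 in replicates 3 and 4 (edgeR adjusted p = 0.069 and 0.21), the same sign in both. Dcr-1 was also negative in both, at -0.22 and -0.39 (edgeR adjusted p = 0.61 and 0.13). The sign of AGO1, r2d2 and loqs was negative in replicates 1 and 2 and positive in replicates 3 and 4, as for AGO2, and that of Tudor-SN was the reverse. Rm62 was positive in both sets, at 0.22 and 0.02.

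The replicate sets themselves differed for some members. Averaged over genotypes, vig was 0.43 higher on the log2 scale in replicates 3 and 4 than in replicates 1 and 2 (SE 0.085, edgeR adjusted p = 0.0028), and loqs was 0.36 lower (SE 0.11, edgeR adjusted p = 0.024). These were 2 of 9 members past the test, beside 35.5% of all genes. What distinguishes the sets is not given in the labels.

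The ratio of counterpart genes of the microRNA and small interfering RNA pathways within a library does not depend on how libraries are scaled. The log2 ratio of AGO2 to AGO1 per kilobase was -0.87 ± 0.21 in libraries labelled Top3b26 and -0.74 ± 0.09 in those labelled w1118 (SD, n = 4 each), so AGO2 transcripts ran below AGO1 transcripts in every library, at 0.462 to 0.653 of the AGO1 level in Top3b26 and 0.569 to 0.654 in w1118 libraries. The difference was -0.13 (two-sided exact permutation test, p = 0.29, adjusted p = 0.71 over 3 ratios). The log2 ratio of Dcr-2 to Dcr-1 was 1.40 ± 0.65 in Top3b26 and 1.54 ± 0.37 in w1118 libraries (exact permutation p = 0.71). That of r2d2 to loqs was -1.28 ± 0.32 in Top3b26 and -1.15 ± 0.29 in w1118 libraries (exact permutation p = 0.54). All 3 p-values stayed above the threshold. The smallest possible p of this test is 0.029 before adjustment, so a single ratio that differed alone could not pass after adjustment over 3 ratios.

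Genes that work beside the machinery were read from lists. Of 16 microRNA biogenesis and effector genes, all tested, 0 rose and 0 fell in edgeR's test (0 of 16 also at an unadjusted p under 0.05, which 12.4% of all genes passed), with a median log2 fold change of 0.026, beside -0.0069 over all tested genes. drosha and pasha, which form the nuclear microRNA processor, were at 0.03 and 0.12, and gw at -0.04. A list of 14 genes, mostly for loading of small interfering RNAs and RISC partners, also holds Vago, a gene induced through Dcr-2 and described below. Of these 14, 0 rose and 0 fell in the edgeR test without a block (1 higher and 2 lower at an unadjusted p under 0.05, beside 12.4% of all genes). The median log2 fold change was -0.16, beside the same -0.0069. Blocked by replicate number, 1 of 14 was called, Vago, beside 3.82% of all genes. Vago was also the 1 of 14 called in replicates 1 and 2, beside 10.5%, and in replicates 3 and 4, beside 7.48%. Hen1, which methylates small RNAs on AGO2, had 11 to 23 counts in Top3b26 libraries, against 18 to 27 counts in w1118 libraries (log2 fold change -0.52, SE 0.31, edgeR adjusted p = 0.54). vig2, the relative of vig, was at -0.08. Fmr1, encoding the fragile X protein that associates with RISC, had 131, 134, 145 and 128 CPM in replicates 1 to 4 labelled Top3b26, against 122, 108, 109.6 and 119 CPM in replicates 1 to 4 labelled w1118. Each Top3b26 value lay above each w1118 value, as the ranges separated for 10.2% of all genes, but the log2 fold change after TMM scaling was 0.10 (SE 0.11, edgeR adjusted p = 0.77). Of 25 piRNA pathway genes, 15 had enough reads to be tested, and 0 of these rose and 0 fell (1 higher and 0 lower at an unadjusted p under 0.05 in edgeR), with a median of -0.064. piwi was at -0.18 over all libraries, -0.73 in replicates 1 and 2 alone and 0.36 in replicates 3 and 4 alone. None of these passed (edgeR adjusted p = 0.81, 0.12 and 0.34), nor did the difference between the sets (edgeR interaction adjusted p = 0.088).

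**Figure D5:**
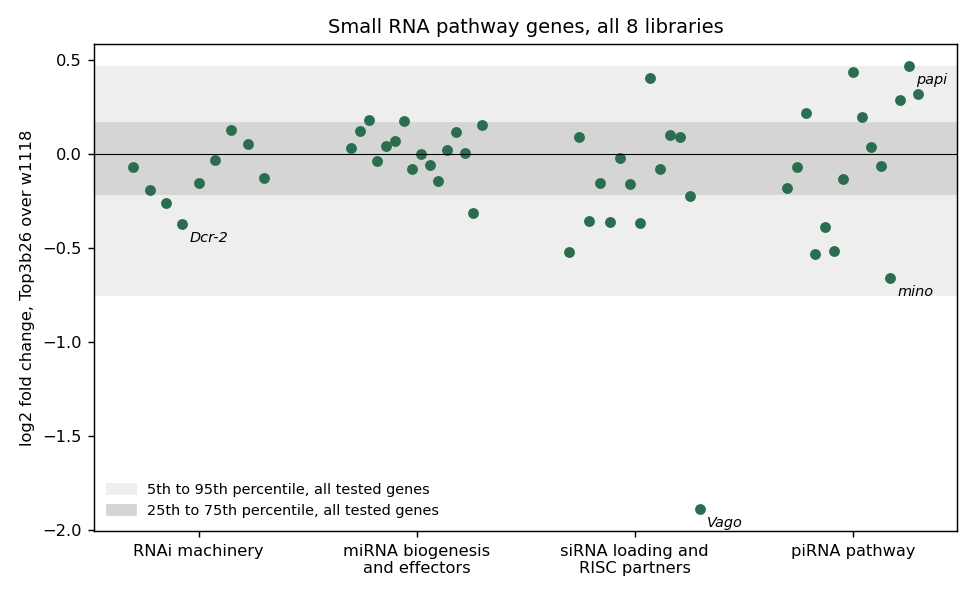
Log2 fold change, Top3b26 over w1118 (vertical axis), of the RNAi machinery genes and of 3 lists of small RNA pathway genes, 1 point per tested gene, with shaded bands for the 25th to 75th and the 5th to 95th percentile of all tested genes. The RNAi machinery genes lie between -0.37 and 0.12, and Vago, at -1.89, lies far below the other list genes.

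Vago was the list gene that stood apart, and it is described because of its values. It encodes a small secreted cysteine-rich protein that is induced by viral infection in a manner that depends on Dcr-2 (X, 11089290 to 11090219 in dm6). Vago had 7.72, 12.1, 14.9 and 13.3 CPM in replicates 1 to 4 labelled Top3b26, against 61.3, 63.6, 23.8 and 21.3 CPM in replicates 1 to 4 labelled w1118. Every Top3b26 library was below every w1118 library, and the w1118 libraries fell into a higher pair, replicates 1 and 2, and a lower pair. The log2 fold change was -1.89 (SE 0.39), which missed the threshold over all libraries (edgeR adjusted p = 0.072) and passed it when blocked by replicate number, at -1.80 (edgeR adjusted p = 0.035). With the replicate set as a term Vago was also at -1.80 (edgeR adjusted p = 0.0075). DESeq2 also called it (adjusted p = 0.00017). It fell by 2.78 on the log2 scale in replicates 1 and 2 (edgeR adjusted p = 7.06e-10) and by 0.79 in replicates 3 and 4 (edgeR adjusted p = 0.0046). The drop was larger in replicates 1 and 2, by 1.96 on the log2 scale (edgeR interaction adjusted p = 1.2e-04). With the w1118 libraries of both sets against Top3b26 replicates 3 and 4 alone, Vago was at -1.58 (edgeR adjusted p = 0.38). That fit leaves out the libraries of low photoreceptor transcripts but keeps w1118 replicates 1 and 2, the higher pair. Genotype and replicate set are thus mixed in its value. All exon bases of Vago (100%) are shared with the antisense RNA CR45604, which the tables count separately and which had 104 to 155 CPM in Top3b26 libraries, against 99.6 to 191 CPM in w1118 libraries. CR45604 had a log2 fold change of -0.31 over all libraries (edgeR adjusted p = 0.55) and -0.43 in replicates 1 and 2 (edgeR adjusted p = 0.032), and without a known strand setting reads of the pair cannot be told apart with certainty.

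In the piRNA list, 1 of 15 tested genes was called in replicates 1 and 2, beside 10.5% of all genes, 2 of 15 in replicates 3 and 4, beside 7.48%, and 1 of 15, mino, with the set as a term, beside 5.6%. papi rose by 0.65 on the log2 scale in replicates 1 and 2 (edgeR adjusted p = 0.01) and was at 0.36 in replicates 3 and 4. mino fell by 0.83 in replicates 3 and 4 (edgeR adjusted p = 0.00086) and was at -0.32 in replicates 1 and 2. The other call in replicates 3 and 4 was squ, with 2 and 4 counts in Top3b26, against 12 and 16 counts in w1118 libraries. squ did not pass the count filter over all libraries and passed it in that set only through the w1118 libraries where it is high, so nothing is read from this call. Tests of the difference between the sets gave adjusted p = 0.43 for papi and 0.11 for mino from edgeR.

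The genes whose level followed AGO2 and Dcr-2 most closely were found by Pearson's r of log2(CPM + 1) over the 8 libraries, as a description. For AGO2 these were CG10973 (r = 0.983), CR32385 (r = 0.970) and CG30466 (r = 0.965). For Dcr-2 they were CG43402 (r = 0.938), CG31689 (r = 0.935) and Cyp4ac1 (r = 0.930). With 8 libraries in 2 replicate sets and 9632 genes compared, the points share genotype, set and depth, and the r values are given without a test.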

How the data were processed

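RNA-seq was measured in 8 libraries of adult heads, 4 labelled Top3b26 and 4 labelled w1118. The authors mapped reads to dm6 with TopHat2 (version 2.1.1 in the submitters' processing notes, with SAMtools 1.8) and deposited raw read counts by gene symbol, 1 table per library. The read counter and its strand setting are not given in the sources used here. The table of w1118 replicate 2 heads its column CPM, but holds whole numbers with a gene total of 3301976 and was treated as counts. Rows for reads on no gene (43.1% to 48.9% of reads), with several alignments (16.6% to 30.4%) or on overlapping genes (0.559% to 0.956%) were left out of totals and tests. Leaving out reads with several alignments lowers genes with near copies.

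The count test was that of edgeR 4.0.16 in R 4.3.3 (filterByExpr, TMM, quasi-likelihood F test, Benjamini-Hochberg over all tested genes), with calls at adjusted p up to 0.05 and 1.5-fold or more. DESeq2 1.42.0 and limma 3.58.1 (voom) were alternatives, beside other scalings, no low-count filter, a replicate block, the replicate sets alone and each library left out. The w1118 libraries against Top3b26 replicates 3 and 4, and library totals without TMM, were added after the data were seen. The former keeps the w1118 libraries of both replicate sets, so it mixes genotype with replicate set. Standard errors were derived from the log2 fold change and its F statistic (size over root F). Per-library CPM uses library totals and fold changes use TMM factors. An exact permutation test (Python 3.11.15) was used for ratios. Exon lengths and overlaps are unions of exons in the Ensembl annotation of dm6.

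The labels number replicates 1 to 4 in both genotypes. Deviations from the genotype means correlated across genes between same-numbered libraries (r = 0.586, 0.437, 0.512 and 0.647). Differently numbered libraries of the same replicate set correlated as strongly (r = 0.527 to 0.622), so these values show the sets and not pairing by number. The numbers served as a block in an alternative fit only. No block was used in the main design, since no pairing is named in the study's methods. The spread between replicate sets therefore enters the standard errors and intervals of that design.

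The members and gene lists were chosen with earlier results of these data known. The genes named were the 9 members, gw, drosha, pasha, Hen1, vig2, Fmr1, piwi, any list gene that was called, Top3beta, and the 3 genes most like AGO2 and Dcr-2 in profile. Vago, papi, mino and squ, which were called only under alternatives, and the genes on opposite strands were named after their values were seen. Of the marker lists, neuron, photoreceptor, fat body and germline are given in the report. Summed levels in Top3b26 and w1118 libraries were 1506 to 2397 and 1258 to 2038 CPM for glia, 2976 to 8915 and 1968 to 6616 CPM for muscle, 260.3 to 422 and 176 to 283 CPM for hemocytes, and 5.83 to 12.0 and 21.9 to 32.1 CPM for gut and abdomen, where 5 of 6 genes were under 1 CPM in every library. In chi-square tests of gene counts, no pair of libraries of the same genotype agreed within sampling noise.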

Additional observations from a re-analysis of the deposited data

Results flagged for a closer look

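In groups of 4 libraries, a value was marked when its gap to the nearest other library took up more of the group's range than Dixon's 95% critical value, which chance exceeds in about 1 of 20 groups. This held for 4 of 42 groups examined. Dcr-1 was at 31.0 CPM in w1118 replicate 1, far above the other w1118 libraries. Dcr-2 was at 31.8 CPM in Top3b26 replicate 1, far below the other Top3b26 libraries. r2d2 was at 51.2 CPM in w1118 replicate 2, the library with the fewest counts, and far above the other w1118 libraries. vig2 was at 44.3 CPM in w1118 replicate 4, below the other w1118 libraries.

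Of 18 genes tested for a genotype effect that differs between the replicate sets, 2 passed edgeR's interaction test, which 7.31% of all genes passed. The effect in replicates 3 and 4 minus that in replicates 1 and 2 was 0.56 on the log2 scale for AGO2 and 1.96 for Vago. The w1118 sets differed too. Mean AGO2 was 317 CPM in w1118 replicates 1 and 2 and 243 CPM in w1118 replicates 3 and 4, against 250 and 281 CPM in Top3b26. Vago was at 61.3 and 63.6 CPM in w1118 replicates 1 and 2, and at 23.8 and 21.3 CPM in w1118 replicates 3 and 4. The libraries labelled Top3b26 replicates 1 and 2 also hold the low photoreceptor transcripts, and the part of these in either difference was not tested.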

How the results depend on the processing

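Calls of the 9 members were 0 under each alternative run. Over 19 settings, 157 of 171 fold changes of members kept their direction and side of the threshold, 13 turned direction and 1 passed the threshold. The cause of these changes was not tested.

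The number of genes called was 88, against 232 with DESeq2, 368 with the replicate block, 539 with the replicate set as a term, 1020 in replicates 1 and 2 alone, 722 in replicates 3 and 4 alone and 27 for w1118 libraries against Top3b26 replicates 3 and 4. It was 42 to 61 with a library left out. Beside Vago and Top3beta, the block changed no call of a member or of another pathway gene named by rule.

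In replicates 1 and 2 alone, AGO2 passed the adjusted p at -0.49 and Tudor-SN turned to 0.017. In replicates 3 and 4 alone, AGO1 turned to 0.043, AGO2 to 0.098, r2d2 to 0.10 and loqs to 0.19. With library totals, AGO1 turned to 0.052, loqs to 0.087 and Tudor-SN to 0.0088. With a library left out, loqs ran from -0.13 to 0.077 and vig from -0.045 to 0.15, Dcr-1 from -0.43 to -0.058, r2d2 from -0.21 to -0.020, AGO2 from -0.26 to -0.10, Dcr-2 from -0.45 to -0.23, Tudor-SN from -0.17 to -0.043, AGO1 from -0.11 to -0.021 and Rm62 from 0.083 to 0.18.

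Among other named genes, gw turned to 0.086 with library totals and 0.070 in replicates 3 and 4, and vig2 to 0.062 with library totals and 0.13 in replicates 1 and 2. piwi turned to 0.36 in replicates 3 and 4 and, against Top3b26 replicates 3 and 4 alone, piwi was at 0.088, drosha at -0.15 and pasha at -0.016. With a library left out, gw ran from -0.10 to 0.046, drosha from -0.061 to 0.11, pasha from -0.022 to 0.19 and vig2 from -0.15 to 0.0073. Vago ran from -2.09 to -1.65 with edgeR's adjusted p from 0.051 to 0.22. The ratio of AGO2 to AGO1 turned to 0.055 in replicates 3 and 4, and that of Dcr-2 to Dcr-1 to 0.12 there, with a range of -0.32 to 0.17 over libraries left out. At 14.4 to 31.0 CPM, Dcr-1 had the lowest counts of the members in every library. The part of counting error in its spread was not tested.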
